A study of Mus musculus with 768 samples.

Results

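The reporter system of these mice is carried by 6 rows of the count tables: the transgenes egfp, tdtomato, icre and ert2, and the mouse genes Sox2 and Fgfr3 whose names the strain carries. They were taken by name from the 52640 rows of genes and transgenes in both tables. All cells came from 1 strain, Fgfr3-CreERT2/Ai14-tdTomato/Sox2-GFP, so every group shares all of these alleles and there was no group without a reporter. Flow cytometry of mouse cochleae at postnatal day 2 enriched for the greater epithelial ridge (GER), an epithelium on the inner side of the hair cells, and the cells were grown as organoids. The medium held EGF, FGF2, IGF1, CHIR99021 (a GSK3 inhibitor), valproic acid, 2-phospho-L-ascorbic acid and the TGFβ receptor inhibitor 616452. Cells were picked by hand on culture day 1, day 3 or day 7 and made into SmartSeq2 libraries, which read full-length cDNA and carry no molecular identifiers. The sort gate, any tamoxifen treatment and the regulatory DNA inside the transgenes are not given in the sources used here.

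In such mice, a CreERT2 recombinase (Cre joined to a modified oestrogen receptor domain) is held outside the nucleus until tamoxifen binds the ERT2 domain. Once inside, it removes a stop cassette at the Rosa26 locus of the Ai14 allele, so that the cell and its descendants make tdTomato whether or not the driver is still on. A GFP reporter without recombination, such as Sox2-GFP, instead follows the current activity of its regulatory DNA. Sox2 encodes a transcription factor of the cochlear prosensory domain and supporting cells, and Fgfr3 encodes a fibroblast growth factor receptor found in pillar and Deiters cells, which lie outside the GER.

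The promoters of both driver genes are shown because the reporters are named after them. No transgene sequence was at hand, so whether the transgenes hold these bases was not tested. The RefSeq sequences are of GRCm38.p6, on the plus strand, upstream of the start that RefSeq gives (Sox2) or that the gene annotation gives (Fgfr3). Capitals mark the matches to the 4 motifs searched on both strands, whose letters are given after the sequences.
Sox2 promoter, chr3:34649745-34649994: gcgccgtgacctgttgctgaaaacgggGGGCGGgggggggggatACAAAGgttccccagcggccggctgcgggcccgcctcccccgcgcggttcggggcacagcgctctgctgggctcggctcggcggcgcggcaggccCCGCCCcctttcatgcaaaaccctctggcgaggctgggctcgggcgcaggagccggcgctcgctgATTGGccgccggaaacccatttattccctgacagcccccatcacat
Fgfr3 promoter, chr5:33721474-33721673: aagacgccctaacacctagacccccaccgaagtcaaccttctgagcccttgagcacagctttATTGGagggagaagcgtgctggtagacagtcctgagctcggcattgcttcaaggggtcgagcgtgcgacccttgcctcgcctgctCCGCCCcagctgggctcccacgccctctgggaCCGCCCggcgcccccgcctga
The Sox2 window of 250 bases had a GC content of 72.0%, and the Fgfr3 window of 200 bases had 65.0%. GGGCGG, the GC box, matched 2 times in each window, against at least 1 match in 32.7% (250 bases) and 24.6% (200 bases) of 32851 RefSeq promoters. CCAAT matched once in each window (33.8% and 28.4% of promoters), and TATAAA in neither (12.4% and 9.14%). ACAAAG, the core bound by SOX and TCF factors, matched once in the Sox2 window and not in the Fgfr3 window (16.5% and 13.6% of promoters). Sox2 itself (ENSMUSG00000074637.7) is a gene of 1 exon at chr3:34650405-34652461 of GRCm38. It lies within the span of the long noncoding gene Sox2ot on the same strand, and whether their exons share bases was not tested. Fgfr3 is carried in the tables as ENSMUSG00000054252.17, a version that differs from the annotation used here, in which its longest transcript has 18 exons.

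The cells fell into 11 cultures, here the sets of cells that share a day and a replicate label: 3 for day 1, 3 for day 3 and 5 for day 7. Of 768 cells, 711 were retained, with 182, 228 and 301 on the 3 days and median depths of 703290, 786896 and 876241 reads. Cultures held between 37 and 86 retained cells. The labels do not say whether replicates were separate cultures of separate animals, so the p-values measure the spread between these sets, which may be technical. Of the labelled GER, its 9 markers summed to 15082 to 15959 CPM (reads scaled to a common library total) on day 1. The sums were 6882 to 8453 on day 3 and 4650 to 17023 on day 7. Most of this sum was 1 gene, Clu, with means of 12815, 5952 and 9698 CPM on the 3 days. Tecta came next, at 2326, 1416 and 1546 CPM. The 8 hair cell markers reached 197 CPM on day 3 against at most 64.3 and 40.5 on day 1 and day 7. The 8 pillar and Deiters markers spanned 182 to 681 CPM over all cultures. Endothelial markers stayed below 1 CPM, with 2 of 3 at 0 reads on each day, and glial, mesenchymal, immune and melanocyte sums did not pass 35.2 CPM. Neuronal sums reached 38.1 CPM on day 3 and at most 9.34 on day 7.

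The 2 reporter proteins' transcripts were found at unlike frequencies. Reads of egfp were present in 645 of 711 cells (90.7%, 95% exact binomial interval 88.3 to 92.7). In those cells the median was 25 reads and the highest 359. Sox2 had a read in 414 cells (58.2%, 54.5 to 61.9), with a median of 13 reads. Transcripts of tdtomato were in 148 cells (20.8%, 17.9 to 24.0), with a median of 12 reads, and 24 of these cells had only 1 or 2. The recombinase was rarer: icre had a read in 42 cells (5.91%, 4.29 to 7.90) and ert2 in 54 (7.59%, 5.76 to 9.79). Fgfr3 also had a read in 42 cells (5.91%), with a median of 17 and a highest of 127 reads. Here and below, the intervals count the pooled cells as independent, so they cover counting error only and leave out the spread between cultures. Since the reads are PCR copies, numbers of reads are not counts of molecules. Levels of transgenes and genes are not compared with each other, as the lengths of the transgenes are not known here. Per kilobase of their longest transcript, Sox2 stood at 3.31 to 9.66 CPM per kb over the cultures and Fgfr3 at 0 to 1.59, with Sox2 above Fgfr3 in each of the 11.

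Taken per cell, the commonest combination was egfp with Sox2 and nothing else, in 269 cells (37.8%). Another 176 cells (24.8%) had egfp alone, 80 (11.3%) had egfp, tdtomato and Sox2, and 43 (6.05%) had egfp and tdtomato. The combination of egfp, tdtomato and Sox2 made up 14.3% of day 1 cells, 16.2% of day 3 cells and 5.65% of day 7 cells. None of the 6 transcripts was read in 24 cells (3.38%). All 6 together were read in 3 cells.

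The first question was whether the reporters and drivers differed between days. The level of a culture is the CPM of its summed reads with TMM factors. Of the 6 transcripts, 0 were called in any of the 3 contrasts at an adjusted p under 0.05 in edgeR's quasi-likelihood test over 17470 genes and transgenes. Over all of these, 0.0114% were called between day 3 and day 1, 7.09% between day 7 and day 1 and 0.967% between day 7 and day 3. At an unadjusted p under 0.05, egfp (edgeR p = 0.00446) and Sox2 (p = 0.0481) were below their day 1 level on day 7. On day 7 egfp was also below its day 3 level (p = 0.0128). Ordered by p among the 17470, egfp stood at rank 1400 and Sox2 at rank 4050 between day 7 and day 1. Between day 7 and day 3 egfp stood at rank 909, so many other genes had p-values as low. Because reads are summed over cells, fewer cells with a transcript and less transcript per cell cannot be told apart in the level of a culture. The share of cells is therefore given further on. The green reporter egfp stood at 52.2, 56.5 and 38.0 CPM in the day 1 cultures, at 32.5, 53.9 and 47.5 on day 3, and at 25.2, 32.0, 25.5, 20.1 and 34.4 on day 7. Day 1 and day 7 did not overlap, while day 3 overlapped both. How many of all genes also had no overlap between day 1 and day 7 was not counted. The mean of egfp was 48.9 ± 9.67 CPM on day 1 (SD, n = 3), 44.6 ± 10.95 on day 3 (n = 3) and 27.4 ± 5.73 on day 7 (n = 5).

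From day 1 to day 7 the fitted log2 fold change of egfp was -0.84 (SE 0.24), with an edgeR adjusted p of 0.0557, just outside the threshold. It was past the threshold with DESeq2 (-0.91, adjusted p = 0.0106), with limma on mean CPM per cell (-0.85, 0.0356) and in edgeR without TMM scaling (-0.85, 0.0465). It was also past it when day 3 replicate 1 (0.0430) or day 7 replicate 5 (0.0425) was left out. With the file of deposition as a term it was -0.72 (0.102). Within the first file it was -1.07 (0.260) and within the second -0.46 (0.601). Cells without an egfp read had a median of 5882 genes with a read, against 6866 in cells with one. Epithelial markers (Epcam, Cdh1, Krt8 and Krt18) summed to 2914 to 4973 CPM on day 1, 2982 to 4920 on day 3 and 1566 to 2456 on day 7. Between day 1 and day 7, 2 of these 4 fell in edgeR, with a median log2 change of -0.85, where 3.55% of all genes fell. The reads of egfp correlated with the epithelial sum across cells at a mean rho of 0.211, above 0 in 10 of 11 cultures. The part of these in the result was not tested.

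Sox2, the driver named for egfp, stood at 17.9, 19.9 and 17.0 CPM on day 1, at 7.17, 19.2 and 17.7 on day 3, and at 12.3, 14.3, 11.8, 8.14 and 6.81 on day 7. Again day 1 and day 7 did not overlap, a trait whose share over all genes was not counted, and day 3 spanned both. The fitted change from day 1 to day 7 was -0.78 (SE 0.36, edgeR adjusted p = 0.207), with -0.67 in the first file and -1.44 in the second. Neither driver nor reporter passed the test, and no difference in their ratio was detected. Between day 3 and day 7 the fitted changes were -0.70 for egfp (SE 0.24, edgeR adjusted p = 0.246) and -0.46 for Sox2 (SE 0.36, adjusted p = 0.723). The mean log2 ratio of egfp to Sox2 reads was 1.40 on day 1, 1.70 on day 3 and 1.39 on day 7. The difference of day 7 from day 1 was -0.014 (exact permutation p = 0.982, adjusted over 9 ratio tests 0.982). Its day 7 mean includes replicate 5 at 2.33, the highest ratio of all cultures. Without replicate 5 the difference was -0.25, and it reached at most 0.0756 when another culture was left out. The near-equal means of day 1 and day 7 thus rest on 1 culture and do not show that the ratio was kept.

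The red reporter tdtomato stood at 6.97, 9.28 and 3.94 CPM on day 1, at 7.45, 5.20 and 4.19 on day 3, and at 4.59, 0.363, 3.25, 2.83 and 4.55 on day 7. The days overlapped, and day 7 replicate 2 held only 11 reads, all in 1 cell. The fitted change from day 1 to day 7 was -1.11 (SE 0.64, edgeR adjusted p = 0.320).

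**Figure D1:**
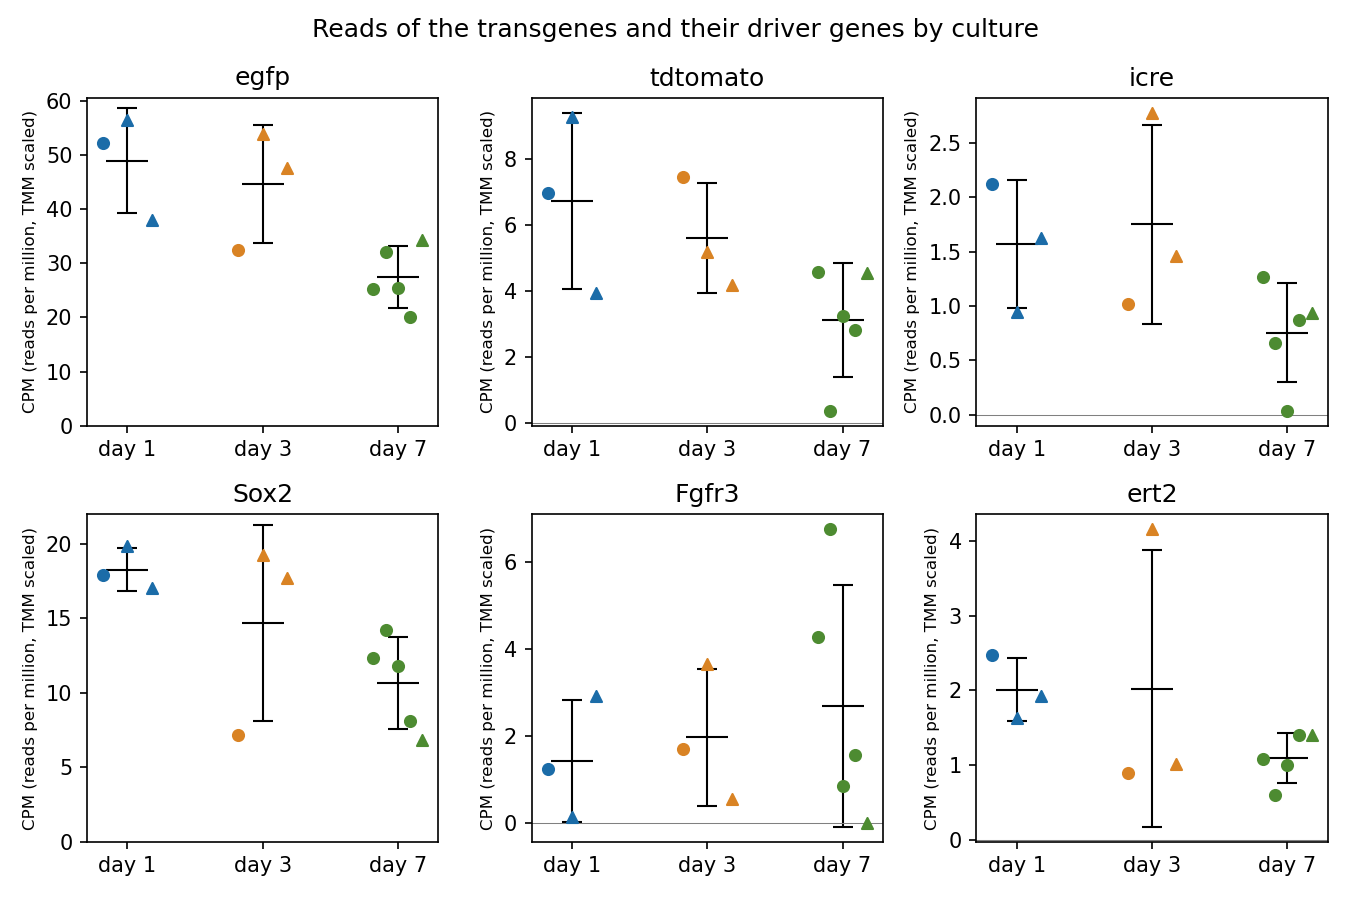
Level of each transcript in every culture, in CPM with TMM scaling, by culture day. Circles are cultures of the first deposited file and triangles those of the second, and bars give the mean and SD. For egfp, Sox2 and ert2 the 3 day 1 cultures lie above the 5 day 7 cultures, whereas Fgfr3 and icre overlap on all days. The share of all genes without such overlap was not counted.

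The recombinase parts were low on every day. For icre the values were 2.12, 0.948 and 1.63 CPM on day 1, 1.02, 2.77 and 1.46 on day 3, and 1.27, 0.660, 0.0361, 0.869 and 0.935 on day 7. For ert2 they were 2.47, 1.63 and 1.93 CPM, then 0.895, 4.16 and 1.01, then 1.08, 0.594, 0.994, 1.40 and 1.40. Day 3 replicate 2 was the highest culture for both. The fitted changes from day 1 to day 7 were -1.05 for icre (SE 0.94, edgeR adjusted p = 0.552) and -0.87 for ert2 (SE 0.74, adjusted p = 0.528). In the order of the days, the log2 ratio of icre to ert2 reads averaged -0.41 ± 0.31, 0.04 ± 0.56 and -1.02 ± 1.83 (SD, n = 3, 3 and 5), where day 7 replicate 3 lay at -4.22. That of tdtomato to Fgfr3 averaged 2.97 ± 2.84, 1.84 ± 1.22 and 1.44 ± 4.52. Its day 7 mean includes replicate 5 at 8.42, a ratio to 0 Fgfr3 reads plus 1 added read, while the other 4 cultures lay between -4.10 and 1.91. The difference of day 7 from day 1 was -1.53, and between -3.28 and -0.0047 when each culture was left out in turn. No difference between days in either passed (exact permutation, adjusted p = 0.964 for each).

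Fgfr3 varied widely between cultures of 1 day, with means and SDs of 1.43 ± 1.40 CPM on day 1 (n = 3), 1.97 ± 1.57 on day 3 (n = 3) and 2.69 ± 2.78 on day 7 (n = 5). It stood at 1.25, 0.126 and 2.92 CPM on day 1, at 1.71, 3.65 and 0.544 on day 3, and at 4.28, 6.76, 0.849, 1.56 and 0 on day 7. Day 7 replicate 5 had no Fgfr3 read in 75 cells, which by counting error alone allows a share of up to 4%. The fitted change from day 1 to day 7 was 0.91 (SE 1.44, edgeR adjusted p = 0.758), and within the second file, whose only day 7 culture is the one without a read, it turned to -9.34 (adjusted p = 0.286), a fitted value whose size depends on the prior count.

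The share of cells with a read was compared after each cell was thinned to 200000 reads, which kept 695 cells. Of the 6 transcripts, tdtomato had the lowest p-values. A read was left in 19.2%, 28.2% and 18.4% of cells in the day 1 cultures, in 25%, 24.2% and 20.8% on day 3, and in 12.8%, 2.70%, 11.6%, 10.3% and 14.7% on day 7. Every day 7 culture lay below every earlier culture, and how many of all genes did the same was not counted. The mean share was 22.0% ± 5.45 (SD, n = 3), 23.4% ± 2.22 (n = 3) and 10.4% ± 4.60 (n = 5). Day 7 differed from day 1 by -11.6 percentage points and from day 3 by -13.0 points. A two-sided exact permutation test gave p = 0.0179 for each, which is the lowest value possible for 3 against 5 cultures, and 0.161 after adjustment over 18 tests. Without thinning the differences were -13.5 and -12.9 points. When at least 10 reads were asked of a cell they were -2.37 and 0.578 points, so the direction against day 3 did not hold for cells with many reads. Within the first file they were -9.89 and -15.7 points, and within the second -8.66 and -7.87.

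The other shares did not pass either, and none of their exact permutation p-values was below 0.107 (adjusted 0.643). For egfp the mean shares were 91.5%, 89.3% and 83.5% on day 1, day 3 and day 7, and for Sox2 they were 57.3%, 53.6% and 46.0%. The day 7 against day 1 difference of Sox2 was -11.3 points, with -2.07 in the first file and -29.3 in the second. The mean shares of icre were 5.64%, 4.60% and 5.21%, those of ert2 6.52%, 6.47% and 6.28%, and those of Fgfr3 6.06%, 7.33% and 6.61%. The unthinned means were 93.1%, 91.1% and 88.3% for egfp and 64.9%, 61.8% and 54.9% for Sox2. With 3 against 3 cultures no p below 0.1 can be reached, so day 3 against day 1 could not pass. A day 7 contrast at its lowest possible p of 0.0179 passes only if several others of the 18 tests also reach it. Not passing therefore says little about any single share. For the 3 rare transcripts the sign of a difference between days often turned under other settings, and their shares are given as levels, with no direction.

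**Figure D2:**
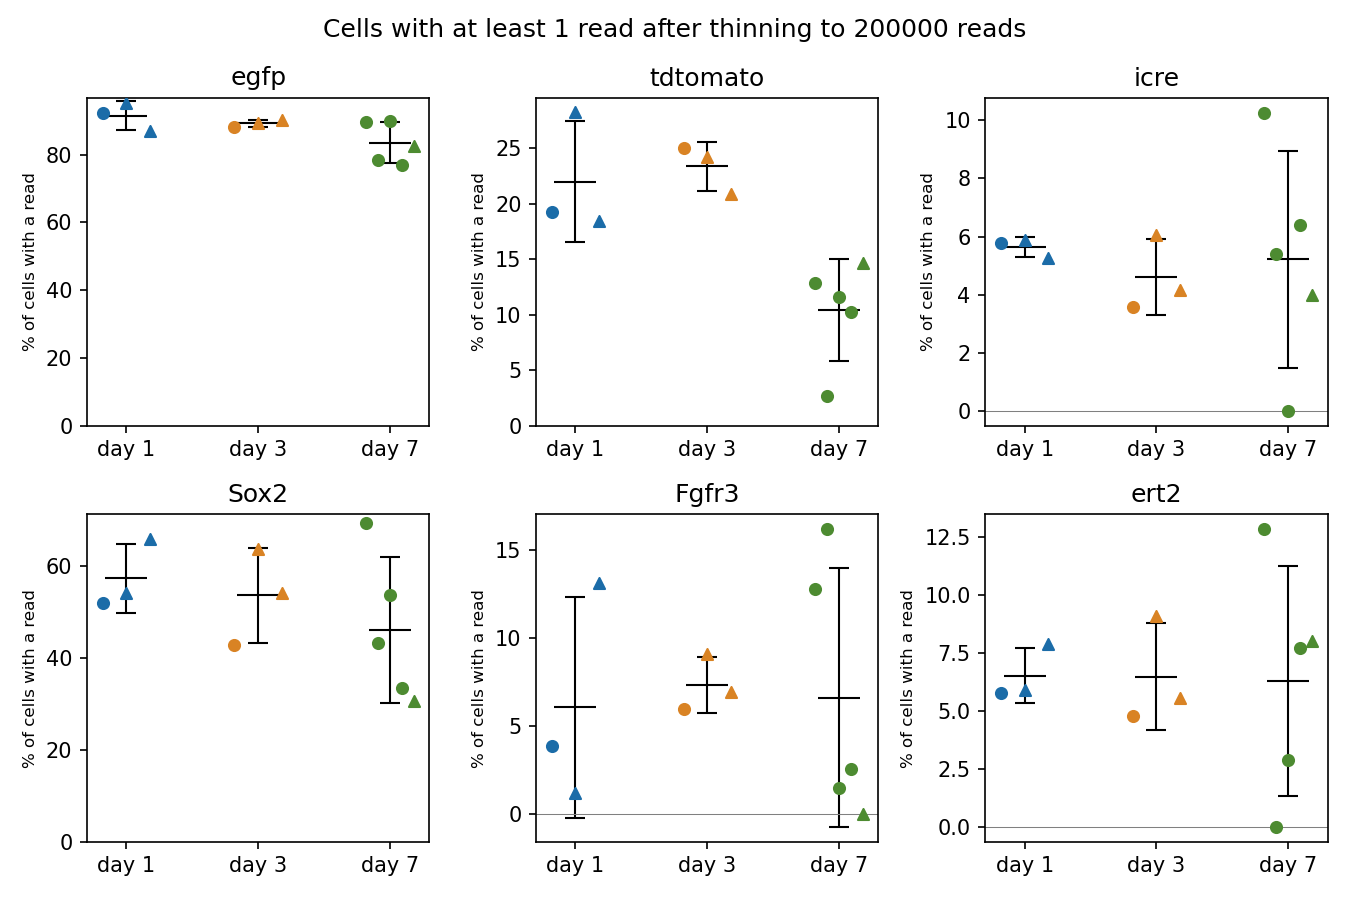
Percent of cells with at least 1 read after thinning to 200000 reads, per culture and day, with the mean and SD. Circles and triangles are the first and second deposited file. For tdtomato the day 7 cultures lie at 2.70% to 14.7%, below the 18.4% to 28.2% of the earlier days. How many of all genes lie apart in this way was not counted.

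The second question was whether a reporter and its driver were read in the same cells. Agreement was measured in each culture as phi, the correlation of read against no read over thinned cells, where 1 is full agreement and 0 none. Cultures with fewer than 3 cells in any margin were left out. Over all 15 pairs of the 6 transcripts, none passed an exact sign-flip permutation test over cultures after adjustment, the smallest adjusted p being 0.117. With 8 usable cultures the lowest possible p of this test is 0.00781, which adjusts to 0.117 when no other pair is as low. Pairs with 8 or fewer usable cultures could therefore not pass alone, and not passing says little about them.

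Both parts of the recombinase were read mostly in the same cells. Phi of icre with ert2 was 1.00 and 0.788 in the 2 day 1 cultures that could be used, 0.861, 0.582 and 0.860 on day 3, and 0.882, 0.907 and 0.692 on day 7. The mean was 0.821 ± 0.131 (SD, n = 8), above 0 in 8 of 8 cultures (exact permutation p = 0.00781, which 8 cultures cannot go below, adjusted p = 0.117). In the first file it was 0.912 and in the second 0.730. Of 57 cells with a read of either, 39 (68.4%) had both. Another 15 had ert2 alone, with a median of 2 reads and a highest of 35, and 3 had icre alone, with at most 3 reads. Among the thinned cells, ert2 was read in 94.4% ± 10.5 of cells with icre and in 2.15% ± 1.65 of cells without (SD, n = 8 cultures). In cells with both, the median ratio of icre to ert2 reads was 1.06, between 0.0159 and 3.5.

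Agreement of the recombinase with Fgfr3 was weaker and rests on few cells. Of 42 Fgfr3 cells, 6 had icre (14.3%, 95% exact interval 5.43 to 28.5), and of the cells without Fgfr3 36 did (5.38%, 3.80 to 7.37). Reads of ert2 were in 9 of the 42 (21.4%, 10.3 to 36.8) and in 6.73% of the cells without Fgfr3 (4.95 to 8.90). Mean phi was 0.242 ± 0.148 for ert2 with Fgfr3 (SD, n = 5, above 0 in 5 of 5, exact permutation p = 0.0625, adjusted 0.313). It was 0.176 ± 0.0512 for icre with Fgfr3 (SD, n = 4, above 0 in 4 of 4, exact permutation p = 0.125, adjusted 0.363). These p-values are the smallest that 5 and 4 cultures allow. The margin rule left out cultures with cells of each transcript but none of both, which were day 1 replicates 1 and 2 and day 7 replicate 4 for either pair, and day 7 replicate 3 for ert2. Each culture with a shared icre and Fgfr3 cell held only 1 such cell after thinning, and there were 6 such cultures. Read the other way, Fgfr3 was in 14.6% ± 15.9 of icre cells and 4.79% ± 3.70 of cells without icre (SD, n = 8 cultures, higher in 4 and lower in 3). For ert2 cells Fgfr3 was higher in 5 cultures and lower in 3. Thinned to 100000 reads, phi of ert2 with Fgfr3 was 0.0372, and with at least 3 reads asked of a cell it was 0.0348.

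The red reporter and Fgfr3 were rarely read in the same cell. Of 148 tdtomato cells, 4 had an Fgfr3 read (2.70%, 0.741 to 6.78), against 38 of the 563 others (6.75%, 4.82 to 9.15). Mean phi was -0.0632 ± 0.116 (SD, n = 5, below 0 in 4, exact permutation p = 0.313, adjusted 0.426). In the first file alone it was 0.0267 and in the second -0.123. With icre it was 0.0456 ± 0.102 (n = 8, exact permutation p = 0.242, adjusted 0.363) and with ert2 0.0391 ± 0.132 (n = 9, exact permutation p = 0.379, adjusted 0.437). Any of icre, ert2 or Fgfr3 was read in 16 of the 148 tdtomato cells (10.8%) and in 74 of the 563 without (13.1%). On day 1 the order was the other way, with 8 of 49 tdtomato cells (16.3%) and 12.03% of the others. On day 3 the values were 5 of 58 (8.62%) and 14.1%, and on day 7 3 of 41 (7.32%) and 13.1%.

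**Figure D3:**
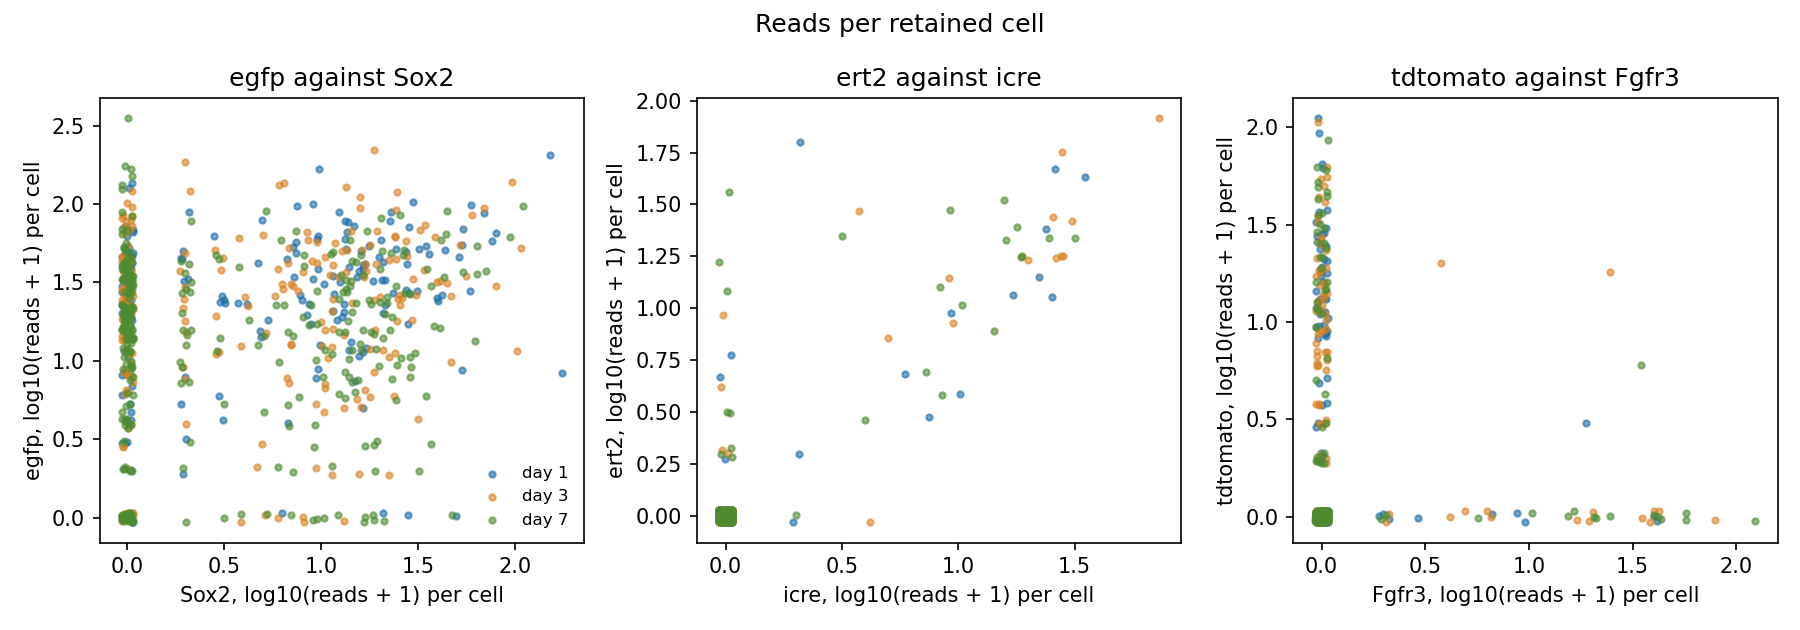
Reads per retained cell as log10(reads + 1), coloured by culture day, for egfp against Sox2, ert2 against icre and tdtomato against Fgfr3 (small random shifts separate the points). In the middle panel 39 cells have reads of both, while the right panel has only 4 cells off both axes.

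The agreement of egfp with Sox2 differed from culture to culture. Phi was 0.300, 0.130 and 0.0475 on day 1, 0.0955, 0.149 and 0.357 on day 3, and 0.324, -0.204, -0.0237, -0.129 and 0.0754 on day 7. In day 1 replicate 1 and day 3 replicate 3, 0 cells had Sox2 without egfp. Their 0.300 and 0.357 are therefore the highest phi that their margins allow. All 6 cultures of the earlier days were above 0, and 3 of the 5 on day 7 were below. The mean was 0.102 ± 0.180 (SD, n = 11, exact permutation p = 0.0947, adjusted 0.355), with 0.0604 in the first file and 0.152 in the second. The day means were 0.159, 0.200 and 0.0085, and no difference between them passed an exact permutation test (day 7 against day 1 p = 0.304, against day 3 p = 0.196, both adjusted over 3 tests to 0.455). With at least 3 reads asked of a cell, both day 7 differences turned above 0 (0.0117 and 0.0992). Counted over all reads, 389 cells had both, 256 egfp alone, 25 Sox2 alone and 41 neither. With egfp, Sox2 was read in 60.3% of cells (56.4 to 64.1), and without it in 37.9% (26.2 to 50.7). After thinning, the culture means were 52.4% ± 14.6 and 33.6% ± 22.0 (SD, n = 11), higher with egfp in 8 of 11 cultures. The median of egfp reads per thinned cell was 10 with Sox2 and 8 without on day 1, 7 and 5 on day 3, and 4 and 3 on day 7. The day 7 means had the other order, at 5.28 with Sox2 and 5.41 without.

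Pairs that cross the 2 reporter systems had mean phi between -0.160 and 0.0258. Phi of egfp with icre was -0.160 ± 0.178 (SD, n = 8, below 0 in 6, exact permutation p = 0.0469, adjusted 0.313). It was -0.0669 for egfp with ert2, -0.105 for egfp with Fgfr3 and -0.0796 for Sox2 with Fgfr3, with adjusted permutation p of 0.363 each. For egfp with tdtomato it was -0.0024 and for tdtomato with Sox2 0.0258 (adjusted exact permutation p = 0.980 and 0.598). Those of icre and ert2 with Sox2 were -0.0428 and -0.0557. On day 7 the median of egfp reads per thinned cell was 9 with a tdtomato read and 3 without, against 8 and 9 on day 1 and 6.5 and 6 on day 3.

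**Figure D4:**
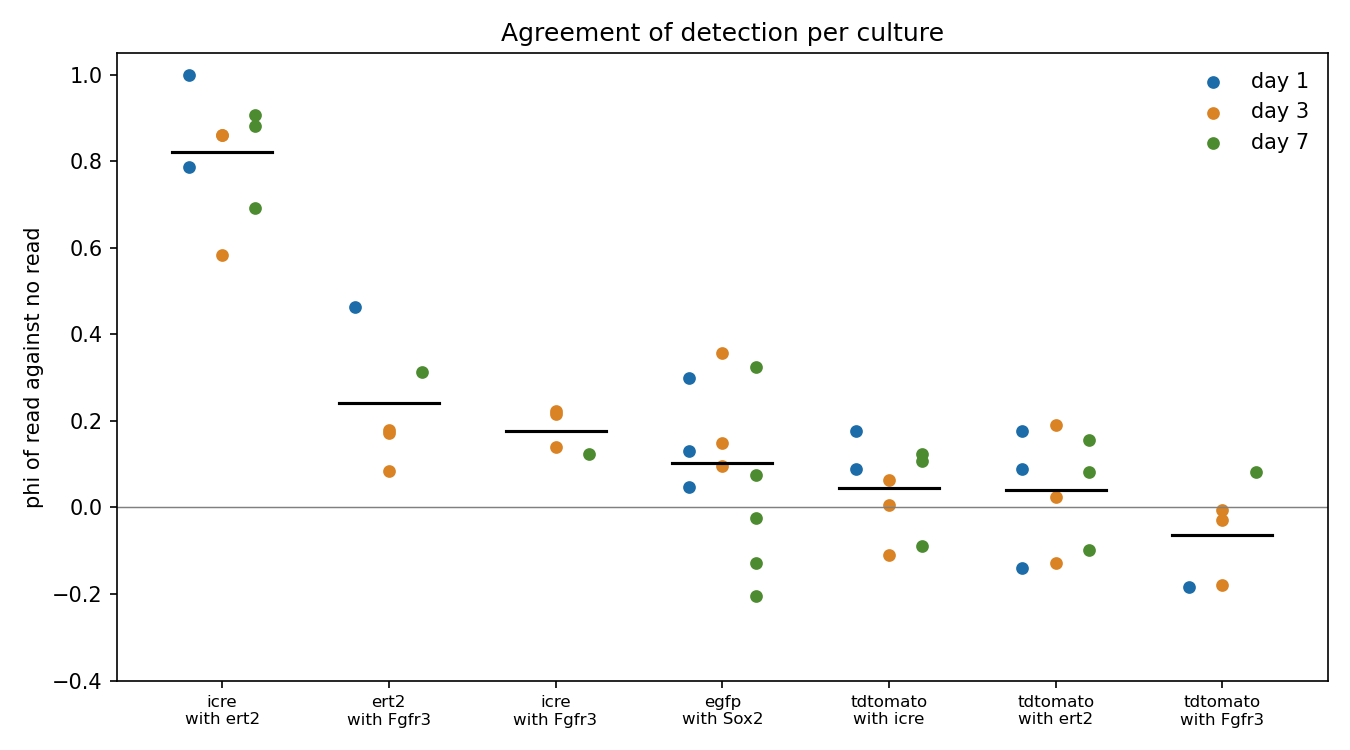
Phi of read against no read for 7 pairs, with a point for each culture coloured by day and a line at the mean. The icre with ert2 points lie at 0.582 to 1.00, and the tdtomato with Fgfr3 points lie at -0.185 to 0.0824. The range of phi that can be reached differs between pairs, as it depends on their shares of cells with a read.

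The members were also set among all genes by the mean within-culture Spearman correlation of thinned reads, over 11507 genes with a read in at least 10% of cells. These are correlations across cells that share library depth, and are given as descriptions. For icre, ert2 stood at 0.829 (9 cultures), while the highest of the genes reached 0.207. Fgfr3 stood at 0.118 with icre, above 0 in 6 of 9 cultures, and 1.86% of genes were higher. With ert2 it stood at 0.117, above 0 in 5 of 9, and 1.18% were higher. Fgfr3, icre and ert2 were themselves read in only 5.47%, 4.89% and 6.33% of thinned cells. Their ranks thus set rare transcripts among genes read in more cells. For tdtomato, Fgfr3 stood at -0.0652, and 97.7% of genes were higher. For egfp, Sox2 stood at 0.131, above 0 in 10 of 11 cultures, and 4.98% of genes were higher. Seen from Sox2, 0.565% of genes were higher than egfp.

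**Figure D5:**
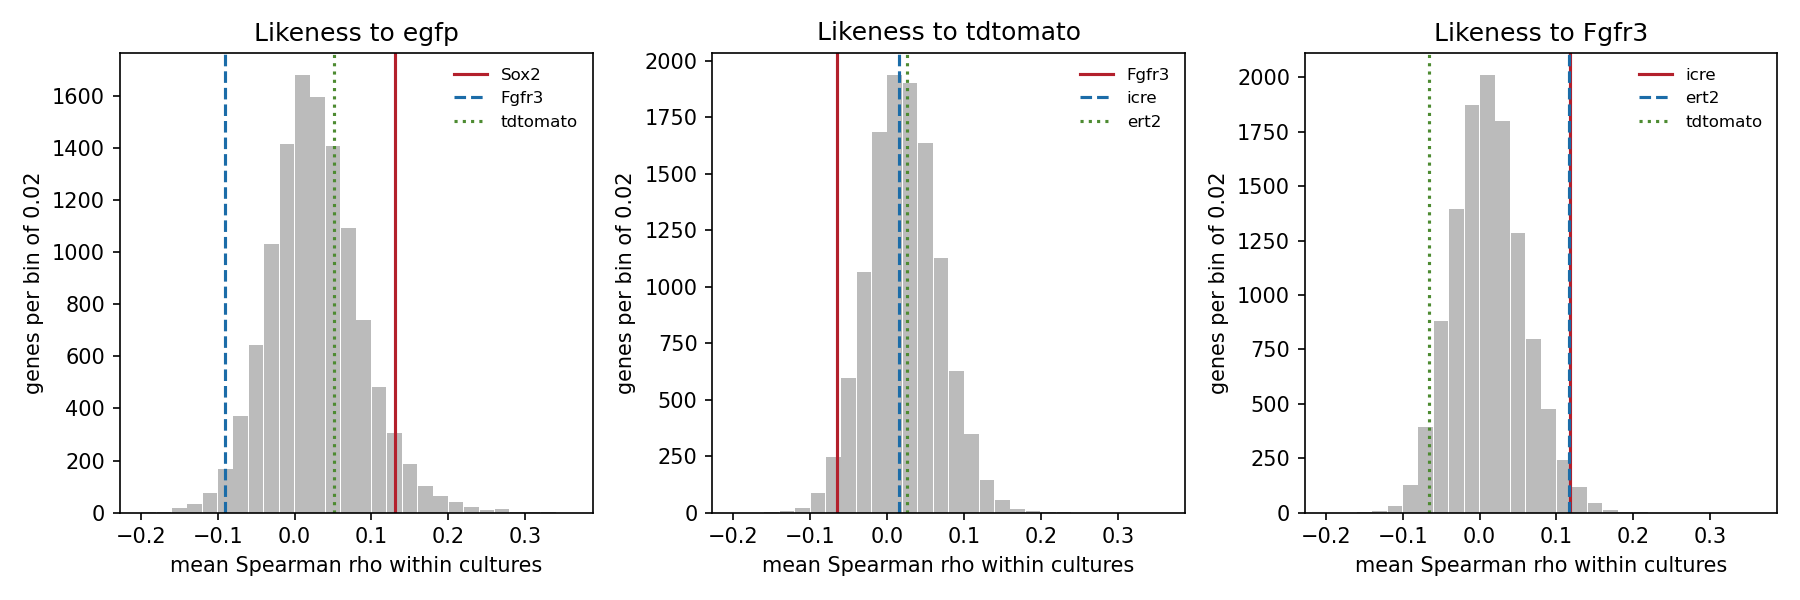
Number of genes per bin of 0.02 in mean within-culture Spearman rho to egfp, tdtomato and Fgfr3, with lines at other members. Sox2 lies at 0.131 in the right tail for egfp, and Fgfr3 at -0.0652 in the left tail for tdtomato.

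The genes most like egfp were Anxa5 (0.322), S100a1 (0.321), Cst3 (0.302), Glmp (0.302) and Sparc (0.300). S100a1 encodes a calcium-binding protein used here as a supporting cell marker. The summed reads of the pillar and Deiters list correlated with egfp at 0.310 and those of the prosensory list at 0.265, above 0 in 11 of 11 cultures each (both lists hold Hey2). The first sum was mostly S100a1, at 327, 388 and 224 CPM on the 3 days, with Lgr5 next at 141, 73.2 and 26.8, so it lies close to the value of S100a1 alone. Sox2 was most like Sall2 (0.199), Isl1 (0.195), Slitrk6 (0.192), Prss23 (0.182) and Kremen1 (0.175). Isl1 encodes a transcription factor of the prosensory domain. Sox2 correlated with the prosensory list at 0.165 and the pillar and Deiters list at 0.150, again above 0 in 11 of 11 cultures. The GER list correlated with egfp at 0.152 and with tdtomato at 0.118, above 0 in 9 of 11 cultures each. With Sox2 the GER list stood at -0.0396, above 0 in 4 of 11. Fgfr3 correlated with the pillar and Deiters list at -0.0753, above 0 in 3 of 10. Its most like genes were Pde3b (0.204), Nat8f4 (0.187), Hist2h3c2 (0.187), Aurkb (0.181) and Kif23 (0.176), of which Aurkb and Kif23 act in cell division. Most like tdtomato were Pak3 (0.222), Galk2 (0.218), Acss3 (0.210), Cxcl16 (0.198) and Anxa3 (0.190). For icre they were Cep55 (0.207), Nrarp (0.203), Kif20a (0.189), Ccdc18 (0.186) and Rhebl1 (0.183), and for ert2 Elmsan1 (0.193), Hist1h1b (0.190), Clcc1 (0.175), Bcat1 (0.173) and Fmnl2 (0.170).

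The genes around the drivers give the setting. Over all genes tested, 3.54% rose and 3.55% fell between day 1 and day 7. Of 8 SOX genes, 6 were tested and 1 rose: Sox9, a transcription factor of otic supporting cells, which went from 74.5 ± 10.2 on day 1 to 176 ± 34.6 CPM on day 7 (1.24 on the log2 scale, SE 0.20, edgeR adjusted p = 0.00471). The list's median log2 change was 0.17 against 0.0022 for all genes tested. Sox1 and Sox3, the closest relatives of Sox2, had 0 reads in all cultures.

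Among 17 tested FGF receptors, ligands and feedback genes, 2 rose between day 1 and day 7 and 0 fell, with a median log2 change of -0.05. Spry1, a feedback inhibitor of FGF signalling, went from 41.0 to 153 CPM (log2 change 1.90, SE 0.19, edgeR adjusted p = 0.000379). Il17rd, another inhibitor, went from 16.7 to 52.5 CPM (log2 change 1.65, SE 0.29, adjusted p = 0.00690). Between day 3 and day 7, 0.183% of all genes rose and 0.784% fell. Fgf8, an FGF ligand, fell from day 3, with 1035 reads, to day 7, with 2 reads (edgeR adjusted p = 0.0426). On day 3 its cultures spanned 0.0471 to 13.2 CPM, and the call was lost in 8 of 11 leave-outs of a culture (adjusted p 0.0581 to 0.168 where lost). It was also lost with file as a term (0.142), with limma (0.148) and in either file alone (0.0905 at the lowest), and kept with DESeq2. Fgf8 is made by inner hair cells, and of the 8 hair cell markers 2 fell and 0 rose between these days in edgeR, whose part in the result was not tested.

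Of 9 tested prosensory regulators, 4 rose and 1 fell between day 1 and day 7, with a median log2 change of 1.07. Hey1, a Notch target, went from 100.3 to 330 CPM (log2 change 1.72, SE 0.30, edgeR adjusted p = 0.00730). Isl1 fell from 354 to 141 CPM (-1.33, SE 0.26, adjusted p = 0.0109), a call lost without day 1 replicate 2 (0.0510). Gata3 (1.19, adjusted p = 0.0175) and Notch1 (0.99, adjusted p = 0.0120), named after their values were seen, also rose in edgeR (log2 changes). Between day 3 and day 7, Hey1 rose (log2 change 1.49, edgeR adjusted p = 0.0397), a call lost in 9 of 11 leave-outs of a culture and in either file alone (0.584 and 0.103).

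Of 6 tested genes in the list of host loci and related genes, 1 rose between day 1 and day 7. It was Tacc3, a neighbour of Fgfr3, which went from 29.2 to 150 CPM (log2 change 2.36, SE 0.43, edgeR adjusted p = 0.00852). That call was lost without day 1 replicate 1 (0.0514). Fgfr3 itself was not called (log2 change 0.91, edgeR adjusted p = 0.758), nor was Letm1 of the same list (0.30, 0.405). The Rosa26 transcript Gt(ROSA)26Sor, at the locus of tdtomato, had 16.5, 15.8 and 10.2 CPM on the 3 days (edgeR adjusted p = 0.536 between day 7 and day 1). Esr1, the oestrogen receptor gene whose human counterpart gave the ERT2 domain, had 49 reads on day 1 and 0 on day 3 and day 7. Within the first file alone, none of the 6 list genes named by rule as called between day 7 and day 1 was called (adjusted p 0.129 to 0.230). Within the second, Sox9, Il17rd, Isl1 and Tacc3 were not (0.110 to 0.288).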

How the data were processed

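Expected counts of each gene in each cell were deposited by the authors in 2 files of 384 cells. The submitters' processing notes name STAR 2.5.3a, RSEM 1.3.0, mm10 and GRCm38, with no further settings. Of values above 0, 10.6% were not whole. The 92 ERCC spike-in rows were left out.

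Counts were rounded per cell. Cells with at least 50000 reads, 1500 genes and at most 20% mitochondrial reads were retained. No doublet caller was run on these hand-picked cells. Counts were summed per culture and tested in 1 fit over 11 cultures with edgeR 4.0.16 (TMM, filterByExpr by day, quasi-likelihood F-test, day as the only term, R 4.3.3) and Benjamini-Hochberg adjustment over all rows tested. DESeq2 1.42.0 and limma 3.58.1 (on log2(CPM + 1)) were alternatives. Shares, ratios (1 read added) and phi were tested over cultures by two-sided exact permutation. The fit was tested on simulated data.

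Same-numbered cultures of different days had deviations correlated at -0.01 to 0.0614, so the numbers were not treated as pairs. The files split cultures unevenly by day: the first holds day 7 replicates 1 to 4, day 1 replicate 1 and day 3 replicate 1. Named were the 6 transcripts, at most 3 called genes per list and contrast by smallest adjusted p, and the 5 genes most like each transcript (predicted genes passed over). The values of 1 listed gene are not reported here. Members and lists were chosen with earlier results of these data known.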

Additional observations from a re-analysis of the deposited data

Results flagged for a closer look

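Among 16 sets of values tested, 2 held a culture far from the others of its day, where chance gives about 1 in 20 sets. Day 7 replicate 5 had a log2 ratio of egfp to Sox2 reads of 2.33, against 1.03 to 1.3 in the other 4 day 7 cultures. It is the only day 7 culture of the second file, and had the highest egfp level (34.4 CPM) and the lowest Sox2 level (6.81 CPM) of its day. Day 7 replicate 3 had a log2 ratio of icre to ert2 reads of -4.22, against -0.68 to 0.22 in the other 4, with 2 reads of icre and 55 of ert2.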

How the results depend on the processing

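Over 73 values and 1324 recomputations, 1141 kept their direction and side of the threshold, 122 changed sign, 56 lost a call and 5 gained one. The gains were all of egfp between day 7 and day 1 (-0.91 with DESeq2, -0.85 with limma and -0.85 without TMM scaling, and 2 leave-outs), and the lost calls were all of list genes. Of the sign changes, 81 involved icre, ert2 or Fgfr3, whose few cells with a read limit these comparisons. The cause was not tested. The agreement of icre with ert2 stayed above 0 in each setting that gave a value, and the share of tdtomato cells stayed lower on day 7 than on day 1. With at least 10 reads asked of a cell, phi could be computed for 5 of the 15 pairs, icre with ert2 not among them.

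The replicate numbers were not taken as pairs. With the replicate number as a block, egfp between day 7 and day 1 was -0.83 (edgeR adjusted p = 0.0834), and genes called were 22, 1030 and 96 for day 3 against 1, day 7 against 1 and day 7 against 3, against 2, 1238 and 169 without it. With the block, the calls of Fgf8 (0.220) and Hey1 (0.0571) between day 7 and day 3 were not made. DESeq2 called 259, 2320 and 639 genes, limma 69, 1796 and 159, and the first and second file alone 0, 15 and 0 and 18, 125 and 20. Without the filter on low counts 13, 1079 and 223 were called, with file as a term 3, 972 and 102, and without TMM scaling 1, 1190 and 148. Leaving out a culture gave 0 to 5, 437 to 1383 and 35 to 170.

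In the second file alone, the sign turned for the log2 level differences of egfp (day 3 against 1, 0.0788), Fgfr3 (day 7 against 1, -9.34), Fgfr3 (day 7 against 3, -9.80), and for the share differences in points of tdtomato (day 3 against 1, -0.79), icre (day 7 against 3, -1.11), ert2 (day 3 against 1, 0.435), ert2 (day 7 against 1, 1.11), ert2 (day 7 against 3, 0.677), Fgfr3 (day 7 against 1, -7.17). In the first file alone, the sign turned for the log2 level differences of tdtomato (day 3 against 1, 0.0514), icre (day 3 against 1, -1.10), ert2 (day 3 against 1, -1.51), ert2 (day 7 against 3, 0.19), Sox2 (day 7 against 3, 0.70), and for the share differences in points of ert2 (day 7 against 1, 0.0836), ert2 (day 7 against 3, 1.09), Sox2 (day 7 against 3, 7.00), Fgfr3 (day 7 against 3, 2.31), and for the mean phi of egfp with tdtomato (0.0539), tdtomato with ert2 (-0.0139), tdtomato with Fgfr3 (0.0267), icre with Sox2 (0.0288), ert2 with Sox2 (0.0205), and for the differences in phi of egfp with Sox2 (day 3 against 1, -0.204). With limma, the sign turned for the log2 level differences of icre (day 3 against 1, -0.17), ert2 (day 3 against 1, -0.34). Without TMM scaling, the sign turned for the log2 level differences of ert2 (day 3 against 1, -0.0713). Without the filter on low counts, the sign turned for the log2 level differences of ert2 (day 3 against 1, -0.00905). Without the cell filter, the sign turned for the log2 level differences of ert2 (day 3 against 1, -0.45). With the replicate number as a block, the sign turned for the log2 level differences of ert2 (day 3 against 1, -0.17), Fgfr3 (day 3 against 1, -0.0452). With file as a term, the sign turned for the log2 level differences of ert2 (day 3 against 1, -0.11), Fgfr3 (day 7 against 3, -0.35). With DESeq2, the sign turned for the log2 level differences of ert2 (day 3 against 1, -0.049). Thinned to 100000 reads, the sign turned for the share differences in points of tdtomato (day 3 against 1, -2.04), icre (day 7 against 3, -0.733), ert2 (day 3 against 1, 0.0685), ert2 (day 7 against 1, 0.301), ert2 (day 7 against 3, 0.232), Fgfr3 (day 7 against 3, 0.061), and for the mean phi of egfp with tdtomato (0.0643), tdtomato with icre (-0.048). Thinned to 400000 reads, the sign turned for the share differences in points of tdtomato (day 3 against 1, -2.35), icre (day 7 against 3, -0.313), ert2 (day 7 against 3, 0.921), Fgfr3 (day 3 against 1, -2.03), Fgfr3 (day 7 against 1, -0.945), Fgfr3 (day 7 against 3, 1.08), and for the mean phi of egfp with tdtomato (0.0656), tdtomato with Sox2 (-0.0122), and for the differences in phi of egfp with Sox2 (day 3 against 1, -0.00701). Without thinning, the sign turned for the share differences in points of tdtomato (day 3 against 1, -0.632), ert2 (day 7 against 3, 0.658), Fgfr3 (day 7 against 3, 0.288), and for the mean phi of egfp with tdtomato (0.0162). With at least 3 reads asked, the sign turned for the share differences in points of tdtomato (day 3 against 1, -3.01), icre (day 7 against 3, -0.562), ert2 (day 7 against 3, 0.018), Fgfr3 (day 7 against 3, 0.915), and for the mean phi of egfp with tdtomato (0.0624), and for the differences in phi of egfp with Sox2 (day 3 against 1, -0.0875), egfp with Sox2 (day 7 against 1, 0.0117), egfp with Sox2 (day 7 against 3, 0.0992). With at least 10 reads asked, the sign turned for the share differences in points of tdtomato (day 3 against 1, -2.95), tdtomato (day 7 against 3, 0.578), icre (day 7 against 3, -0.505), Fgfr3 (day 7 against 3, 0.565), and for the mean phi of egfp with tdtomato (0.044), and for the differences in phi of egfp with Sox2 (day 7 against 1, 0.0563), egfp with Sox2 (day 7 against 3, 0.00697).

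Where leaving out each culture in turn turned a sign or a call, these ranges were found. Log2 level differences ranged for egfp (day 3 against 1, -0.28 to 0.0188), egfp (day 7 against 1, -0.98 to -0.71), tdtomato (day 3 against 1, -0.55 to 0.0466), icre (day 3 against 1, -0.33 to 0.41), ert2 (day 3 against 1, -1.07 to 0.34), ert2 (day 7 against 3, -1.27 to 0.20), Fgfr3 (day 3 against 1, -0.33 to 1.53), Fgfr3 (day 7 against 3, -0.24 to 1.25). Share differences in points ranged for Fgfr3 (day 7 against 1, -1.89 to 4.1), Fgfr3 (day 3 against 1, -1.17 to 4.82), tdtomato (day 3 against 1, -0.374 to 4.53), ert2 (day 3 against 1, -1.36 to 0.808), ert2 (day 7 against 1, -1.87 to 1.34), Sox2 (day 3 against 1, -8.76 to 1.62), ert2 (day 7 against 3, -1.82 to 1.38), Fgfr3 (day 7 against 3, -3.12 to 0.933), icre (day 7 against 3, -0.646 to 1.92), icre (day 7 against 1, -1.68 to 0.88). Mean phi ranged for egfp with tdtomato (-0.0184 to 0.0437). Differences in phi ranged for egfp with Sox2 (day 3 against 1, -0.037 to 0.112). Log2 ratio differences ranged for egfp to Sox2 (day 7 against 1, -0.25 to 0.0756), tdtomato to Fgfr3 (day 3 against 1, -2.40 to 0.40), tdtomato to Fgfr3 (day 7 against 3, -2.15 to 0.98), icre to ert2 (day 7 against 1, -0.92 to 0.19).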
